A study of Mus musculus with 21 samples.

Results

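The response of RAW264.7 cells to 24 h of lipopolysaccharide (LPS), the outer membrane glycolipid of Gram-negative bacteria, was read from 4 of the 21 samples of the series. RAW264.7 is a mouse macrophage-like line that was established from a tumor induced by Abelson leukemia virus, so every value describes 1 transformed line and not primary macrophages. The LPS group held 2 libraries of wild-type cells given 1 µg/mL LPS for 24 h, and the PBS group held 2 libraries of wild-type cells given phosphate-buffered saline for the same time. No other agent was given to these groups, and RNA of both was extracted on 1 date. The deposited table names its libraries LPS2, LPS3, PBS1 and PBS2, and values are given in that order within each group. A pair of libraries from cells given LPS plus 0.5 mM of a compound labelled CTM was not compared here. It entered the level filter, the scaling and the estimate of the spread described below. The series also holds livers and RAW264.7 cells taken at 12 h, of which the 12 h wild-type cells are set beside the 24 h values where stated. Vimentin-knockout (Vim-KO) cells at 12 h, 2 libraries with PBS and 2 with LPS, were not compared here. They entered the filter, the scaling and the estimate of the spread at 12 h, so 12 h p-values rest partly on them. The series takes up transglutaminase 2 and vimentin in activated macrophages, and the LPS and PBS groups at 24 h hold the response of the unmodified cells. Whether both libraries of a group are from 1 culture or from different ones is not given in the labels, and a p-value therefore covers no more than the variation among the libraries used.

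LPS is carried by Cd14 to a complex of Tlr4 and Ly96 (MD-2) on the macrophage surface. From there the adaptor Myd88 leads to NF-κB and the AP-1 factors, which drive cytokine and chemokine genes, and the adaptor Ticam1 (TRIF) leads to interferon regulatory factors and the type I interferon genes, whose product induces the interferon-stimulated genes in a second wave. The same signals induce inhibitors that limit the response, such as Nfkbia, Tnfaip3, Zfp36 and the dual-specificity phosphatases.

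Levels were deposited as TPM, the abundance of a transcript corrected for its length and scaled to a fixed total per library, so a value is a share of a library and the read depth behind it is unknown. Differences are LPS minus PBS on the log2(TPM + 1) scale, given with the standard error of the limma model, and they understate the change of genes with low levels. A gene rose or fell where its limma p-value, adjusted by Benjamini-Hochberg over the 11030 genes tested, was below 0.05. Of these genes 66.0% passed, 20.9% higher and 45.1% lower with LPS. Changes of at least 2-fold were seen for 853 higher genes (7.73%) and 1443 lower genes (13.1%). Changes of at least 16-fold were seen for 53 higher genes (0.481%) and 6 lower genes (0.0544%). The LPS and PBS libraries did not overlap for 82.9% of genes. Across genes the 2 LPS libraries correlated at Pearson's r = 0.987 and the 2 PBS libraries at r = 0.986.

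The median of all genes tested lay at -0.23 with LPS. After median-of-ratios scaling it lay at -0.0013. Then 62.2% of genes passed, 31.3% higher and 31.0% lower, and 10.1% were at least 2-fold higher and 8.03% at least 2-fold lower. The excess of falls over rises was thus present in TPM as listed and absent after scaling. Scaling of this kind sets the median change near 0 by design, so the even split does not show which reading is right. Small falls of abundant housekeeping genes should be read against the median. The 10 genes with the largest gain in TPM, led by Fth1, Spp1, Ccl3 and Ftl1, took 10.7% and 10.8% of all TPM in the LPS libraries, against 3.44% and 3.49% in the PBS libraries. Spp1, which encodes the secreted phosphoprotein osteopontin and was picked out after its values were seen, alone stood at 19722 and 20085 TPM in LPS cells and 3687 and 3869.8 TPM in PBS cells. Gene lists are described below by counts and by the median of the tested members, to be read against the percentages above and the median of all genes. Some genes, such as Il1rn, are on several lists, so the lists are not separate lines of evidence. A member that passed the level filter only through the group where it is high had to differ, so these counts describe and do not test the lists. In bulk RNA, fewer cells with a transcript and less of it per cell cannot be told apart.

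**Figure D1:**
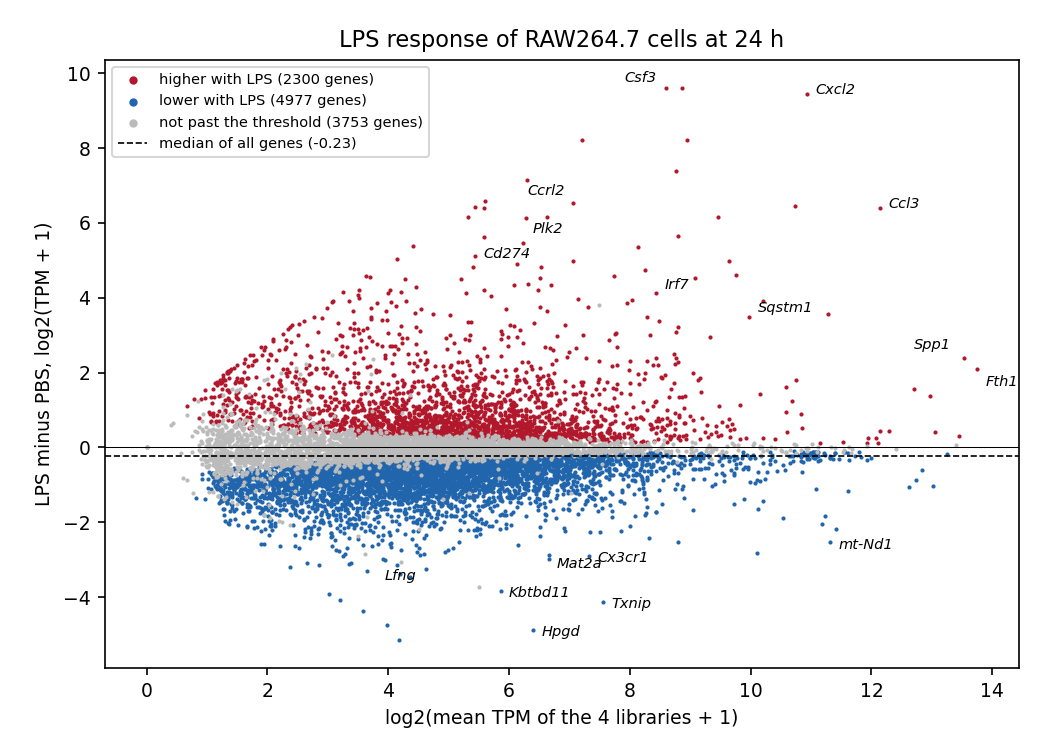
Mean level on the log2(TPM + 1) scale (x axis) against the LPS minus PBS difference on the same scale (y axis) for the 11030 genes tested at 24 h, colored by whether limma's adjusted p passed 0.05 and in which direction. The dashed line marks the median of all genes, and the rises reach further from it than the falls.

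The cells carried the macrophage genes their label names. Lyz2 (lysozyme) stood at 9682 and 9701 TPM in LPS cells and 7112 and 7320.2 TPM in PBS cells, and Csf1r, the receptor for macrophage colony-stimulating factor, at 851 and 718 TPM in LPS cells and 1389 and 1457 TPM in PBS cells. Of 48 markers of T and NK cells, B cells, neutrophil granules, fibroblasts, endothelium, epithelium with hepatocytes and erythroid cells, 46 did not reach a mean of 1 TPM, and 20 of these were listed at 0 in all 4 libraries. The highest of the 46 was at 1.73 TPM in an LPS library and at 0.594 TPM in a PBS library. The exceptions were Lck, a kinase of T cells, at 15.8 and 14.6 TPM in LPS cells and 4.87 and 7.46 TPM in PBS cells, and Ighm, the immunoglobulin mu heavy chain, at 30.8 and 30.9 TPM in LPS cells and 65.1 and 63.4 TPM in PBS cells. The T cell receptor genes Cd3d, Cd3e and Cd3g were listed at 0 in all 4 libraries.

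The LPS receptor was not changed as a unit. Tlr4 stood at 19.6 and 17.8 TPM in LPS cells and 17.7 and 20.3 TPM in PBS cells, a difference of -0.020 ± 0.12 that did not pass (limma adjusted p = 0.886). Cd14, which hands LPS to the receptor, rose to 2382 and 2247 TPM in LPS cells, against 756 and 750.2 TPM in PBS cells (1.62 ± 0.042, limma adjusted p = 2.34e-07). Its partner Ly96 rose by 0.81 ± 0.14, while Ly86 (MD-1), which pairs with the Tlr4 relative Cd180, fell by 1.21. Among the 14 Toll-like and LPS receptor genes tested, 4 rose, 5 fell and 5 did not pass, a balance that turned to 5 rises and 3 falls after scaling. Tlr2, the receptor for bacterial lipoproteins, was among those that rose (0.61 ± 0.057), and Tlr8 and Tlr13, receptors of microbial RNA, fell (-1.04 ± 0.21 and -0.60 ± 0.11). Tlr8 passed at low levels, 1.87 and 1.06 TPM in LPS cells against 4.35 and 3.67 TPM in PBS cells.

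Adaptors and kinases downstream of the receptor moved in both directions. Of 22 tested, 10 rose and 8 fell (11 and 7 after scaling). The adaptor Myd88 was at 35.6 and 26.9 TPM in LPS cells and 62.8 and 59.8 TPM in PBS cells and fell (-0.96 ± 0.13, limma adjusted p = 0.000419). Tirap and Ticam2, the bridging adaptors of Myd88 and Ticam1, fell too (-1.07 ± 0.13 and -1.11 ± 0.13). Ticam1 itself rose to 39.8 and 40.4 TPM in LPS cells, against 11.9 and 12.5 TPM in PBS cells (1.64 ± 0.085). The largest rise in this group was that of Irak3 (2.55 ± 0.11), a kinase relative without catalytic activity that restrains Toll-like receptor signaling, at 43.1 and 38.7 TPM in LPS cells and 6.72 and 5.65 TPM in PBS cells. Irak2, Ikbke and the ubiquitin ligase Peli1 rose by 2.09, 1.62 and 1.64. Tab2, Traf6 and Map3k8 did not pass.

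Of 11 genes of NF-κB subunits and IκB proteins 7 rose and 2 fell, and the largest changes were in IκB genes. Nfkbiz, a nuclear IκB protein needed for secondary response genes such as Il6 and Lcn2, rose to 189 and 174 TPM in LPS cells, against 12.4 and 14.8 TPM in PBS cells (3.65 ± 0.096, limma adjusted p = 2.46e-07). Nfkbia and Nfkbib, which hold NF-κB in the cytoplasm, rose by 1.69 and 1.92. Nfkbie, another such inhibitor, fell to 3.06 and 2.28 TPM in LPS cells, against 8.48 and 10.6 TPM in PBS cells (-1.52 ± 0.18). Of the subunits Rel rose by 0.91 ± 0.10, and Rela and Relb did not pass, at -0.16 ± 0.089 and 0.047 ± 0.11.

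Genes that end inflammatory signaling or destroy inflammatory mRNA were mostly higher, with 12 of 18 tested rising, 3 falling and a median of 1.22. Il1rn, the natural antagonist of interleukin 1, was at 395 and 418 TPM in LPS cells and 13.9 and 18.6 TPM in PBS cells (4.57 ± 0.12). Zfp36 (tristetraprolin) and Zc3h12a (regnase-1), which destabilize cytokine mRNA, rose by 2.99 ± 0.086 and 2.72 ± 0.078. Tnfaip3 (A20), a ubiquitin-editing enzyme, was at 36.5 and 38.3 TPM in LPS cells and 5.93 and 7.25 TPM in PBS cells (2.34 ± 0.12). The cytokine signaling inhibitors Cish and Socs3 rose by 3.74 and 2.11. Against this direction Tnip3, a partner of A20, was at 53.5 and 47.3 TPM in LPS cells and 101 and 101 TPM in PBS cells (-0.99 ± 0.076), and Zfp36l2, a relative of tristetraprolin, fell by 0.83.

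Of 13 genes of phosphatases and other inhibitors of MAP kinase signaling 7 rose and 4 fell. Dusp4, a nuclear phosphatase of ERK, p38 and JNK, stood at 250.2 and 264 TPM in LPS cells and 7.23 and 7.13 TPM in PBS cells (4.98 ± 0.10, limma adjusted p = 7.36e-08). Dusp5 rose by 4.51 ± 0.19, Dusp1 by 3.36 ± 0.19 and Dusp16 by 2.17 ± 0.12. Dusp6 and Dusp7, the cytoplasmic phosphatases of ERK, fell. Dusp6 was at 14.1 and 7.67 TPM in LPS cells and 36.1 and 38.7 TPM in PBS cells (-1.75 ± 0.23), so its 2 LPS libraries differed from each other but both lay below both PBS libraries.

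Of 25 immediate early genes 16 rose and 7 fell. Plk2, a polo-like kinase, rose to 151 and 154 TPM in LPS cells, against 1.15 and 1.24 TPM in PBS cells (6.13 ± 0.13). Atf3, a stress-induced repressor of inflammatory genes, was at 558 and 537 TPM in LPS cells and 10.1 and 15.3 TPM in PBS cells (5.35 ± 0.19). Rgs1, a regulator of G protein signaling, Ier3 and Maff rose by 4.54, 3.85 and 3.70. Myc was at 17.9 and 19.2 TPM in LPS cells and 0.856 and 1.04 TPM in PBS cells (3.33 ± 0.14). The growth factor-induced genes Ier2, Egr2 and Egr3 fell by 2.21, 2.08 and 2.14. Fos was at 29.4 and 19.2 TPM in LPS cells and 18.6 and 20.6 TPM in PBS cells and did not pass (0.27 ± 0.18), although it passed without LPS3 (0.56).

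Chemokine genes held some of the highest levels of the LPS libraries. Of 15 CC chemokine genes on the list 10 passed the level filter, of which 8 rose, and their median was 4.31. Ccl3 and Ccl4, chemokines that recruit monocytes, T cells and NK cells, were the most abundant. Ccl3 reached 8382 and 9526 TPM in LPS cells, against 106 and 103 TPM in PBS cells (6.403 ± 0.10). Ccl4 reached 3169 and 3547 TPM in LPS cells, against 37.1 and 37.3 TPM in PBS cells (6.45 ± 0.086). The monocyte attractants Ccl2 and Ccl7 rose by 5.65 ± 0.067 and 5.62 ± 0.14, and Ccl5, an attractant of T cells, rose to 559 and 614 TPM in LPS cells, against 21.2 and 20.5 TPM in PBS cells (4.75 ± 0.062). Ccl25 fell by 0.74 at low levels, and Ccl6 did not pass. Of the genes that rose, Ccl2, Ccl7, Ccl12, Ccl5, Ccl9, Ccl3 and Ccl4 lie within chr11:82035571-83664683 (GRCm38, GENCODE M21). Within this span Ccl2, Ccl7 and Ccl12 lie apart from Ccl5, Ccl3 and Ccl4.

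Of 12 CXC chemokine genes 6 were tested, of which 3 rose and 1 fell. Cxcl2, a neutrophil attractant, had the second highest difference of all genes named here (9.45 ± 0.12), and its close relative Cxcl3 rose by 3.02 ± 0.19. Cxcl10, an interferon-inducible attractant of T cells, rose to 56.3 and 61.3 TPM in LPS cells, against 3.99 and 4.30 TPM in PBS cells (3.54 ± 0.15). Cxcl14 fell to 11.3 and 10.1 TPM in LPS cells, against 32.9 and 34.6 TPM in PBS cells (-1.57 ± 0.10).

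Chemokine receptors changed as well. The atypical receptor Ccrl2, which binds chemerin without signaling, rose to 262 and 264.9 TPM in LPS cells, against 1.73 and 2.02 TPM in PBS cells (6.53 ± 0.15, limma adjusted p = 1.42e-07). Ccr1, a receptor for Ccl3 and Ccl5, rose to 37.3 and 34.2 TPM in LPS cells, against 1.25 and 1.69 TPM in PBS cells (3.90 ± 0.13). Cxcr4 was at 31.6 and 36.1 TPM in LPS cells and 2.80 and 4.58 TPM in PBS cells (2.92 ± 0.21). The fractalkine receptor Cx3cr1 fell to 42.7 and 32.2 TPM in LPS cells, against 282 and 282 TPM in PBS cells (-2.89 ± 0.12). Ccr2 did not pass.

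**Figure D2:**
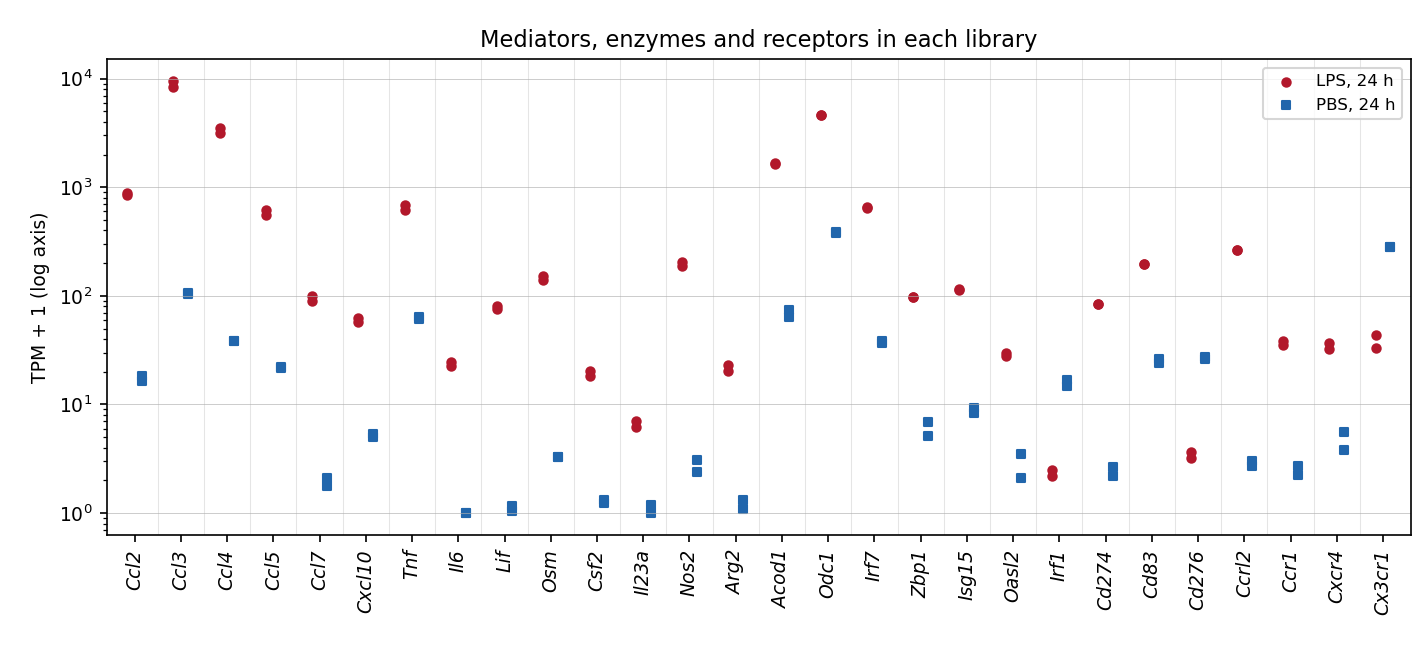
TPM + 1 on a log axis for each of the 2 LPS libraries (red circles, left of each pair) and the 2 PBS libraries (blue squares, right) at 24 h for 28 genes of the text. In each of these genes both LPS libraries lie on the same side of both PBS libraries, below them for Irf1, Cd276 and Cx3cr1 and above them for the rest.

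Several cytokines that were absent or nearly so with PBS were present with LPS. Il6 stood at 21.8 and 23.8 TPM in LPS cells and was listed at 0 in both PBS libraries. Csf2 (GM-CSF) was at 17.2 and 19.3 TPM in LPS cells and 0.306 and 0.243 TPM in PBS cells (3.92 ± 0.18). The Il6 relatives Lif and Osm reached higher levels than Il6 itself. Lif was at 80.5 and 75.3 TPM in LPS cells and 0.162 and 0.0428 TPM in PBS cells, and Osm at 151 and 139 TPM in LPS cells and 2.28 and 2.31 TPM in PBS cells (5.47 ± 0.10). Il23a, a subunit of interleukin 23, rose by 2.59 ± 0.22, while Il12b, the other subunit, stayed below the filter at 0.557 and 0.656 TPM in LPS cells and was listed at 0 in PBS cells. Il33 was at 3.26 and 2.76 TPM in LPS cells and listed at 0 in PBS cells, and Il18 fell by 0.79. Of 17 tested interleukin and Il6 family genes 9 rose and 5 fell, and the largest falls were those of receptors. Il6ra was at 9.70 and 9.48 TPM in LPS cells and 58.2 and 62.9 TPM in PBS cells (-2.54 ± 0.089), and Il21r fell by 2.13.

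Of 18 TNF superfamily genes tested 12 rose and 4 fell, with a median of 1.68. Tnf rose to 685 and 616 TPM in LPS cells, against 63.1 and 60.6 TPM in PBS cells (3.37 ± 0.064). Its receptors moved apart: Tnfrsf1b (TNFR2) rose to 290.5 and 296 TPM in LPS cells, against 21.0 and 20.9 TPM in PBS cells (3.74 ± 0.075), and Tnfrsf1a (TNFR1), which carries a death domain, fell to 37.6 and 36.0 TPM in LPS cells, against 68.8 and 69.7 TPM in PBS cells (-0.89 ± 0.069). The death receptor Fas rose by 3.05 ± 0.12. Tnfsf15 rose by 3.59 ± 0.22, and Cd40, through which T cells activate macrophages, by 3.01 ± 0.37 with unequal libraries, at 12.8 and 17.8 TPM in LPS cells and 0.342 and 1.99 TPM in PBS cells. Tnfrsf11a (RANK), the receptor of the osteoclast factor, fell by 0.62.

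The promoters of the genes that rose were searched for the NF-κB motif, GGGA followed by any base and TTTCC, on both strands, in the 250 bases before each RefSeq start (build GRCm38.p6). A promoter was available for 8408 of the 11030 genes tested. The motif was present in 1.15% of genes at least 2-fold higher (7 of 608), against 0.364% of genes at least 2-fold lower (4 of 1099) and 0.476% of all genes tested. A match of letters is not a site of binding, and its absence says only that these letters are not in this window. The promoters of Cxcl2 (chr5:90903649-90903898, plus strand) and Il6 (chr5:30012864-30013113, plus strand) are shown because these were the named genes with the 2 highest changes among those that held the motif, which is in capitals and begins 97 and 44 bases before the start.
Cxcl2: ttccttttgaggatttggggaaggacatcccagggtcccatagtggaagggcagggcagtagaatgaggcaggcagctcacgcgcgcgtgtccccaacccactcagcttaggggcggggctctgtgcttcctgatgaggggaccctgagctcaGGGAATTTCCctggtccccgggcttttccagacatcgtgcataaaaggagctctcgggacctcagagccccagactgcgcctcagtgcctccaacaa
Il6: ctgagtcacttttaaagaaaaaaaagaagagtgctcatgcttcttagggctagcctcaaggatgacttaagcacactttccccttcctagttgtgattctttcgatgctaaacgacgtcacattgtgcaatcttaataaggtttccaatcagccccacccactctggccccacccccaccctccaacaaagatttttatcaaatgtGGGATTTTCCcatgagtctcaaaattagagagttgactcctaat

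Of 16 genes that make nitric oxide, itaconate and polyamines or handle arginine 11 rose and 4 fell. Nos2, the inducible nitric oxide synthase, was at 202 and 186 TPM in LPS cells and 1.37 and 2.09 TPM in PBS cells (6.17 ± 0.13). Acod1, which makes itaconate from cis-aconitate, reached 1650.2 and 1688 TPM in LPS cells, against 63.4 and 72.8 TPM in PBS cells (4.60 ± 0.071). Arg2, the mitochondrial arginase, rose by 4.20 ± 0.16 and Ass1, which recycles citrulline to arginine, by 2.92 ± 0.11. Odc1, the first enzyme of polyamine synthesis, reached 4585 and 4593 TPM in LPS cells, against 389 and 379.5 TPM in PBS cells (3.57 ± 0.044). In the synthesis of tetrahydrobiopterin, the cofactor of Nos2, the first enzyme Gch1 rose by 2.70 ± 0.10, while the next enzymes Pts and Spr fell by 1.63 and 1.18. Pts was at 17.3 and 17.2 TPM in LPS cells and 54.1 and 57.2 TPM in PBS cells.

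In prostaglandin metabolism 6 of 17 genes rose and 6 fell, or 8 and 6 after scaling. The inducible enzymes Ptgs2 and Ptges rose by 7.39 ± 0.13 and 3.15 ± 0.29, and the constitutive Ptgs1 fell to 4.45 and 4.09 TPM in LPS cells, against 14.9 and 13.8 TPM in PBS cells (-1.54 ± 0.13). Hpgd, which inactivates prostaglandins, had the lowest difference of the named genes (-4.88 ± 0.090). The receptors Ptgir for prostacyclin and Ptger2 for prostaglandin E2 rose by 3.03 ± 0.11 and 1.51 ± 0.16, and Ltc4s, which makes leukotriene C4, fell by 1.08. Pla2g4a, Alox5ap and Hpgds did not pass.

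Interferon-stimulated genes were mostly higher, while the interferon genes themselves were near 0. Of 51 tested 45 rose, 3 fell and 3 did not pass, with a median of 1.49. Irf7, the transcription factor that amplifies type I interferon expression, rose to 660.3 and 649 TPM in LPS cells, against 37.2 and 35.8 TPM in PBS cells (4.13 ± 0.048, limma adjusted p = 1.21e-08). Zbp1, a sensor of Z-form nucleic acids, rose to 97.1 and 97.4 TPM in LPS cells, against 5.83 and 4.12 TPM in PBS cells (4.05 ± 0.14). Isg15, a ubiquitin-like modifier, was at 113 and 114 TPM in LPS cells and 8.21 and 7.31 TPM in PBS cells (3.71 ± 0.092). Oasl1, Oasl2 and Ifit3 rose by 3.27, 3.42 and 3.41. Ifi47, Znfx1 and Ifitm2 fell by 1.01, 0.73 and 0.34, the last a fall that did not pass after scaling (-0.089). Eif2ak2 (PKR), Cmpk2 and Mx1 did not pass, although Eif2ak2 did without LPS2 (-0.56) and Mx1 without LPS3 (1.22). Ifnb1 was at 0.145 and 0.269 TPM in LPS cells and 0 and 0.264 TPM in PBS cells, and Ifng was listed at 0 in all 4 libraries.

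Of 20 interferon regulatory factor and STAT pathway genes 10 rose and 6 fell (11 and 4 after scaling). Irf1, Irf2 and Irf3 were among those that fell. Irf1 was at 1.47 and 1.20 TPM in LPS cells and 15.7 and 13.9 TPM in PBS cells (-2.76 ± 0.15, limma adjusted p = 7.22e-06). The interferon gamma receptor chain Ifngr1 fell to 12.96 and 12.2 TPM in LPS cells, against 47.3 and 47.5 TPM in PBS cells (-1.83 ± 0.088), and the type I receptor chains Ifnar1 and Ifnar2 did not pass. Batf and Stat3 rose by 2.88 ± 0.15 and 1.02 ± 0.085. The guanylate-binding protein and IRG GTPases, which attack vacuoles of intracellular microbes and follow interferon gamma, were mostly low, and of 19 on the list 7 were tested and 4 rose. In the Schlafen family, of which 7 genes and the pseudogene Slfn10-ps lie within chr11:82951349-83215154 (GRCm38), 5 of 8 rose and 2 fell. Slfn4 was at 792 and 814 TPM in LPS cells and 83.4 and 88.6 TPM in PBS cells (3.21 ± 0.071), and Slfn2 rose by 2.67 ± 0.068. Schlafen genes are similar to each other, so reads may be shared among them.

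The interferon-stimulated response element, searched as GAAA, any 2 bases and GAAA on both strands of the same window, was present in 14 of 38 promoters of the list (36.8%). It was present in 7.89% of genes at least 2-fold higher, 2.64% of genes at least 2-fold lower and 3.39% of all genes tested. Isg15 (chr4:156200819-156201068, minus strand) is shown as the gene of the list with the highest change that held the motif, chosen after its values were seen. It held 3 matches that overlap or follow each other, the first beginning 78 bases before the start. Of all named genes the 2 with the highest change that held the motif were Plk2 (chr13:110394794-110395043, plus strand) and Tnfrsf1b (chr4:145246871-145247120, minus strand). Matches are in capitals and may read on either strand.
Isg15: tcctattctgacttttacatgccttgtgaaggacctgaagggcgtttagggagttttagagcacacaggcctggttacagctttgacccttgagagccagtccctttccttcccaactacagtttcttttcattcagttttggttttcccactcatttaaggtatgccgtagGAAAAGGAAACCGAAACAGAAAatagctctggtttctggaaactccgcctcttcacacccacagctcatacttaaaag
Plk2: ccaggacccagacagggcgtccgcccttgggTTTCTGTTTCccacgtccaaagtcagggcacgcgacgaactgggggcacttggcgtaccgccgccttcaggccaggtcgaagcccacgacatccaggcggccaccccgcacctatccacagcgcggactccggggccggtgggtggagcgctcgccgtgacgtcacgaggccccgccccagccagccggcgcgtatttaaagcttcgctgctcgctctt
Tnfrsf1b: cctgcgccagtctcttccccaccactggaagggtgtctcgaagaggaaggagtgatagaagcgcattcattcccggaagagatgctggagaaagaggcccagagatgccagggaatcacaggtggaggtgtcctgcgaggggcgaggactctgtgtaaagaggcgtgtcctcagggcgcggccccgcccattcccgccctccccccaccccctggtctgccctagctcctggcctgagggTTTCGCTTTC

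Transcripts of MHC class I and peptide loading genes were mostly higher, with 16 of 21 genes rising, 1 falling and a median of 0.52. H2-T23 (Qa-1) was at 105 and 117 TPM in LPS cells and 29.2 and 32.5 TPM in PBS cells (1.82 ± 0.082), and H2-M3, which presents formylated bacterial peptides, at 96.4 and 101 TPM in LPS cells and 31.0 and 34.6 TPM in PBS cells (1.56 ± 0.076). Nlrc5, the transactivator of class I genes, rose by 1.54 ± 0.16 and the peptide transporter Tap1 by 1.08 ± 0.10. The immunoproteasome subunits Psmb8 and Psmb9 did not pass, and Psmb10 fell by 0.38, a fall that did not pass after scaling (-0.13), where Psmb8 and Psmb9 were higher. Class I genes are similar in sequence, so their separate values are uncertain. Of 9 class II genes 4 were tested, of which 1 rose and 2 fell, or 2 and 2 after scaling. Cd74, the invariant chain, rose to 1020.1 and 997 TPM in LPS cells, against 567 and 626 TPM in PBS cells (0.76 ± 0.055), and the peptide editor genes H2-DMa and H2-DMb1 fell by 0.87 and 1.78.

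Of 18 tested costimulators and checkpoint ligands of T cells 12 rose and 3 fell, with a median of 1.73. Cd274 (PD-L1), an inhibitory ligand, rose to 83.6 and 82.3 TPM in LPS cells, against 1.19 and 1.67 TPM in PBS cells (5.12 ± 0.14, limma adjusted p = 2.77e-07). The activating ligands Cd80 and Cd86 rose by 2.56 ± 0.10 and 2.25 ± 0.17, and Cd83, a marker of mature antigen-presenting cells, was at 194 and 196 TPM in LPS cells and 22.9 and 25.2 TPM in PBS cells (2.97 ± 0.12). Cd276 (B7-H3) went the other way, with 2.63 and 2.18 TPM in LPS cells and 25.1 and 26.2 TPM in PBS cells (-2.97 ± 0.14), and Havcr2 (Tim-3) fell by 1.35. The adhesion ligand Icam1 fell by 0.29, a call lost without LPS3 (-0.25), without PBS1 (-0.30), without PBS2 (-0.28) and after scaling (-0.043).

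Of 13 C-type lectin receptor genes 7 rose and 5 fell. Clec4n (Dectin-2) was at 85.0 and 95.1 TPM in LPS cells and 3.16 and 4.73 TPM in PBS cells (4.22 ± 0.15). Its neighbors Clec4d and Clec4e (Mincle), which sense mycobacterial and fungal glycolipids, rose by 2.39 ± 0.046 and 1.67 ± 0.074, and Clec4d reached 718 and 746 TPM in LPS cells, against 137 and 141 TPM in PBS cells. These genes lie within chr6:122921848-123289870 (GRCm38). Clec7a (Dectin-1), the β-glucan receptor, and the inhibitory Clec12a fell, Clec12a to 20.7 and 21.97 TPM in LPS cells, against 86.1 and 86.5 TPM in PBS cells (-1.97 ± 0.088).

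Of 26 Fc, TREM and efferocytosis receptor genes 12 rose and 9 fell (14 and 6 after scaling). Lilrb4a, an inhibitory leukocyte receptor, was among the most abundant rises at 2231 and 2203 TPM in LPS cells and 140.1 and 149.9 TPM in PBS cells (3.93 ± 0.085). Siglec1, the sialoadhesin of tissue macrophages, rose to 127 and 106 TPM in LPS cells, against 10.6 and 11.7 TPM in PBS cells (3.27 ± 0.10). Trem2, a lipid receptor, fell to 107 and 100.3 TPM in LPS cells, against 298 and 309 TPM in PBS cells (-1.54 ± 0.056). In the CD300 family Cd300lf rose by 2.03 ± 0.12 and Cd300lb fell by 2.05. Among scavenger receptors Stab1, Msr1 and Cd36 rose by 2.05, 1.72 and 1.46, and Scarb1 and Scarb2 fell by 1.15 and 0.90. Among G protein-coupled receptors and their regulators, of which 8 of 25 rose and 14 fell, the niacin and butyrate receptor Hcar2 rose to 137 and 131 TPM in LPS cells, against 3.88 and 3.21 TPM in PBS cells (4.90 ± 0.11). Gpr84, a receptor of medium-chain fatty acids, fell to 20.9 and 16.7 TPM in LPS cells, against 66.7 and 67.4 TPM in PBS cells (-1.79 ± 0.11).

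**Figure D3:**
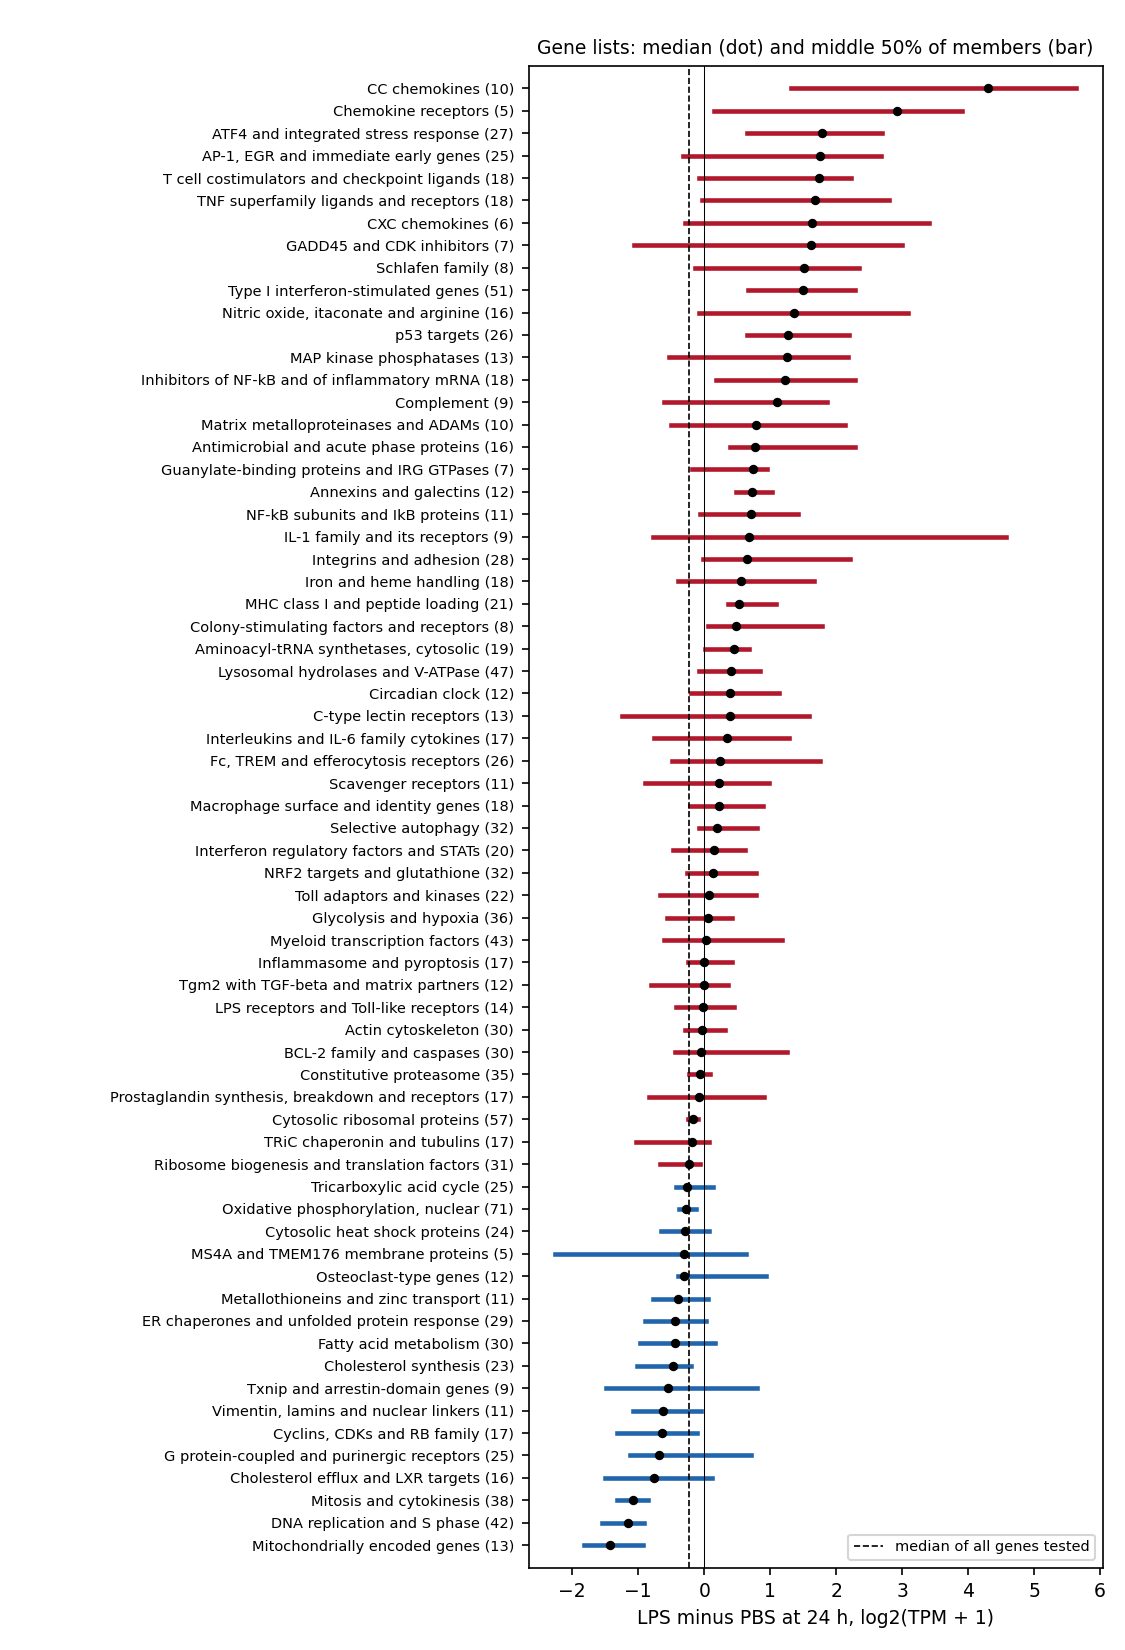
Median (dot) and middle 50% (bar) of the LPS minus PBS differences at 24 h, in log2(TPM + 1), over the tested members of each gene list with at least 5 of them, with the number tested in parentheses. Red bars have a median above that of all genes tested (dashed line) and blue bars one below it; the CC chemokines lie highest and the mitochondrially encoded genes lowest.

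Antimicrobial and acute phase genes rose in 13 of 16 cases. Lcn2, which withholds iron from bacteria by binding their siderophores, Wfdc17 and the acute phase gene Saa3 rose by 7.16, 4.35 and 2.72, and S100a8 was at 7.30 and 7.99 TPM in LPS cells and 0.896 and 0.714 TPM in PBS cells (2.26 ± 0.17). Slpi, a secreted protease inhibitor, rose to 132 and 163 TPM in LPS cells, against 46.6 and 31.2 TPM in PBS cells (1.91 ± 0.18). S100a4, an abundant calcium-binding protein, fell to 1352 and 1393 TPM in LPS cells, against 2884 and 3009.6 TPM in PBS cells (-1.10 ± 0.049). Of 9 complement genes 5 rose and 3 fell (6 and 2 after scaling). Cfp (properdin), which stabilizes the alternative pathway convertase, rose to 480.0 and 491 TPM in LPS cells, against 114 and 128 TPM in PBS cells (2.00 ± 0.062), the anaphylatoxin receptor C3ar1 rose by 2.998 ± 0.14, and C3, the central component, fell by 0.77.

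Fth1, the ferritin heavy chain, had the largest gain in TPM of all genes and reached 21923 and 22649.7 TPM in LPS cells, against 5214 and 5179 TPM in PBS cells (2.10 ± 0.030, limma adjusted p = 2.21e-08). The light chain Ftl1 reached 11148 and 11913 TPM in LPS cells, against 4467 and 4474 TPM in PBS cells (1.37 ± 0.038). Hmox1, which frees iron from heme, and Blvrb, which reduces biliverdin, rose by 3.08 ± 0.058 and 1.75 ± 0.11. The iron transporters Slc11a1 (Nramp1) of phagosomes and Slc11a2 (DMT1) rose by 2.61 ± 0.093 and 2.05 ± 0.094. Hfe, a regulator of iron uptake, fell to 2.94 and 3.72 TPM in LPS cells, against 20.6 and 18.01 TPM in PBS cells (-2.23 ± 0.15), and the iron exporter Slc40a1 did not pass. In all 9 of 18 iron and heme genes rose and 6 fell (9 and 3 after scaling). Metallothionein Mt2 rose by 2.08 ± 0.11, while 2 of 11 metallothionein and zinc transport genes rose and 5 fell (3 and 4 after scaling), with the zinc exporter Slc30a1 at -1.03 ± 0.14.

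Of 18 macrophage surface and identity genes 10 rose and 6 fell (11 and 3 after scaling). Itgam (CD11b) and its partner Itgb2 rose by 2.21 ± 0.053 and 1.31 ± 0.054, Cd52 reached 2631 and 2741 TPM in LPS cells, against 760.3 and 781 TPM in PBS cells (1.80 ± 0.041), and Adgre1 (F4/80) did not pass. Csf1r fell by 0.86. Of 43 myeloid transcription factors 20 rose and 17 fell (20 and 13 after scaling). Cebpb, which drives acute inflammatory genes, rose to 549 and 605 TPM in LPS cells, against 108 and 109 TPM in PBS cells (2.40 ± 0.059). Bhlhe40 and Bhlhe41 rose by 2.09 ± 0.27 and 2.18 ± 0.16 and Klf6 by 2.28 ± 0.081. Klf10 fell to 2.62 and 2.25 TPM in LPS cells, against 27.5 and 25.6 TPM in PBS cells (-3.005 ± 0.14), Klf4 fell by 1.58, and Tfeb, a regulator of lysosome genes, fell by 1.90. Nfatc1, the main factor of osteoclast formation, fell by 1.44. Among clock genes Nr1d1 (REV-ERBα) rose to 33.4 and 32.0 TPM in LPS cells, against 2.49 and 2.56 TPM in PBS cells (3.26 ± 0.11), and 6 of 12 rose in all.

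Genes of the cell cycle were lower with few exceptions. Of 42 DNA replication and S phase genes 41 fell and 1 did not pass, with a median of -1.16, and of 38 mitosis genes 37 fell, with a median of -1.08. Ccne2, the cyclin of S phase entry, was at 2.76 and 2.39 TPM in LPS cells and 32.5 and 29.1 TPM in PBS cells (-3.15 ± 0.17). The thymidine kinase Tk1 fell to 39.8 and 43.4 TPM in LPS cells, against 204 and 193 TPM in PBS cells (-2.23 ± 0.069), and the proliferation marker Mki67 to 52.2 and 47.6 TPM in LPS cells, against 167 and 153 TPM in PBS cells (-1.66 ± 0.079). Cdt1, which licenses origins, and the kinesin Cenpe did not pass. The repressors E2f7 and E2f8 fell with them, by 1.71 and 2.61. After scaling 40 S phase genes and 35 mitosis genes fell. The E2F motif TTTNNCGC was present in 8 of 35 promoters of the S phase list (22.9%), 11.6% of genes at least 2-fold lower and 8.88% of all genes tested.

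Targets of p53 were mostly higher, with 22 of 26 rising, 4 falling and a median of 1.26. Mdm2, the ubiquitin ligase of p53, rose to 403 and 363 TPM in LPS cells, against 50.8 and 42.2 TPM in PBS cells (3.02 ± 0.11, limma adjusted p = 1.27e-06). The CDK inhibitor Cdkn1a (p21) was at 588 and 575 TPM in LPS cells and 157 and 161 TPM in PBS cells (1.86 ± 0.045). Gadd45a and Gadd45b, stress genes named for growth arrest and DNA damage, rose by 4.15 ± 0.13 and 4.83 ± 0.11, and the TNF receptor family member Eda2r by 2.95 ± 0.12. Sesn1 fell to 7.46 and 7.16 TPM in LPS cells, against 54.3 and 54.3 TPM in PBS cells (-2.73 ± 0.098), and Ccnd1 (cyclin D1) by 1.44. Of 7 tested genes on a separate list of GADD45 genes and CDK inhibitors, Gadd45b among them, 4 rose and 3 fell. The CDK inhibitors Cdkn2c, Cdkn1b and Cdkn2d fell by 2.56, 1.32 and 0.82.

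Of 30 genes of the BCL-2 family, the caspases and their partners 13 rose and 10 fell (15 and 7 after scaling). Bcl2l1 (BCL-XL), a survival protein, was at 256 and 260.3 TPM in LPS cells and 51.7 and 45.3 TPM in PBS cells (2.39 ± 0.080). Bcl2a1a rose by 3.11 ± 0.079, a value that near-identical copies of this gene make uncertain. The BH3 proteins Bmf and Bid, which promote death, fell, Bid to 18.98 and 16.2 TPM in LPS cells, against 73.9 and 75.2 TPM in PBS cells (-2.03 ± 0.12). Mlkl, the effector of necroptosis, rose by 2.51 ± 0.12, while Casp8 and Ripk3 did not pass. Among inflammasome genes Casp4 (caspase-11), the sensor of cytosolic LPS, rose to 36.3 and 36.2 TPM in LPS cells, against 14.5 and 12.8 TPM in PBS cells (1.35 ± 0.097), Nlrp3 rose by 0.78 ± 0.073, and Casp1 did not pass.

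The integrated stress response, in which Atf4 raises amino acid transport and synthesis, was mostly higher. Of 27 genes tested 22 rose and 3 fell, with a median of 1.79. Slc7a11, the cystine transporter, rose to 204 and 188 TPM in LPS cells, against 8.92 and 8.59 TPM in PBS cells (4.33 ± 0.069, limma adjusted p = 2.42e-08). Ddit3 (CHOP) was at 145 and 162 TPM in LPS cells and 15.1 and 13.9 TPM in PBS cells (3.32 ± 0.081). Trib3, Cth and Chac1 rose by 3.77 ± 0.27, 3.20 ± 0.18 and 3.16 ± 0.16. The serine synthesis gene Phgdh fell by 0.69. Psat1, next in that pathway, was lower by a small margin (-0.21 ± 0.059) that turned to 0.044 after scaling and did not pass without LPS3 (-0.18) or without PBS1 (-0.15). Among cytosolic tRNA synthetases 13 of 19 rose and 3 fell, led by Cars, Sars and Nars at 1.43, 1.24 and 1.22. Sars reached 490.5 and 476 TPM in LPS cells, against 204 and 204 TPM in PBS cells.

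The CHOP and ATF4 motif TGATGNAA was present in 7 of 25 promoters of this list (28%), 6.41% of genes at least 2-fold higher, 2.64% of genes at least 2-fold lower and 2.5% of all genes tested. Atf3 (chr1:191183334-191183583, minus strand) is shown as the member with the highest change that held it, chosen after its values were seen, with the match on the other strand in capitals.
Atf3: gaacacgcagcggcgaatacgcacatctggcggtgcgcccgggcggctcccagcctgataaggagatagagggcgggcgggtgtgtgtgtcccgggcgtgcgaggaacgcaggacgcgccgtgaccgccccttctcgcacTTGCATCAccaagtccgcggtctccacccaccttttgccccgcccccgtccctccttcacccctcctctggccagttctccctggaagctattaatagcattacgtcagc

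The unfolded protein response of the endoplasmic reticulum did not rise with it. Of 29 chaperone and quality control genes 5 rose and 19 fell, and after scaling 9 rose and 14 fell. Manf and Sdf2l1, secreted or luminal chaperone partners, fell by 1.04 and 1.02, and Dnajc3 fell to 15.8 and 15.0 TPM in LPS cells, against 45.0 and 43.2 TPM in PBS cells (-1.46 ± 0.082). The sensor Ern1 (IRE1) rose by 1.76 ± 0.11 and the sensor Eif2ak3 (PERK) fell by 1.30. Of 24 cytosolic heat shock genes 4 rose and 13 fell (7 and 9 after scaling). Hspa8 fell to 853 and 875 TPM in LPS cells, against 1569 and 1549.9 TPM in PBS cells (-0.85 ± 0.038), Dnaja1 and Dnajb1 fell by 1.18 and 1.02, and Hsp90aa1 rose by 0.36 ± 0.054. For the constitutive proteasome 8 of 35 rose and 14 fell, and the balance turned to 16 and 3 after scaling, so no direction is given for it. Psmd8 was the largest change there (1.00 ± 0.068).

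Of 32 NRF2 targets and glutathione genes 15 rose and 11 fell as listed, and 18 rose and 4 fell after scaling. Sqstm1 (p62), an autophagy receptor that also frees NRF2 from Keap1, rose to 1806 and 1903 TPM in LPS cells, against 163 and 164 TPM in PBS cells (3.495 ± 0.050). Gclc, the rate-limiting enzyme of glutathione synthesis, and Keap1 fell by 1.27 and 1.12, and Nfe2l2 (NRF2) and Txn1 did not pass. Of 32 selective autophagy genes 15 rose and 5 fell (22 and 1 after scaling). Nbr1, another receptor, was at 85.6 and 85.7 TPM in LPS cells and 27.5 and 32.8 TPM in PBS cells (1.48 ± 0.093), and Tecpr1 and Rb1cc1 rose by 1.66 ± 0.12 and 1.43 ± 0.11. Of 47 lysosomal genes 29 rose and 9 fell (36 and 5 after scaling). The proteases Ctsl and Ctsd rose by 1.49 ± 0.050 and 1.14 ± 0.043, and Man2b1 and Ctsh fell by 1.26 and 0.71.

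Txnip, an arrestin-like inhibitor of glucose uptake, had the second lowest difference of the named genes (-4.13 ± 0.13). Of its list of 9 tested genes 2 rose and 5 fell (4 and 5 after scaling). Arrdc4, which shares its glucose-sensing regulation, rose to 13.5 and 16.4 TPM in LPS cells, against 3.40 and 3.99 TPM in PBS cells (1.76 ± 0.15), and Mlx, a subunit of the sensor, rose by 1.15 ± 0.096, while Arrdc2 and Arrb1 fell by 1.80 and 1.49. Among glycolysis and hypoxia genes 13 of 36 rose and 13 fell (19 and 10 after scaling). The glucose transporter Slc2a1 was at 323 and 329 TPM in LPS cells and 102 and 116 TPM in PBS cells (1.57 ± 0.072), Hk3 rose by 2.65 ± 0.070 and the angiogenic factor Vegfa by 3.05 ± 0.11. The lactate exporter Slc16a3 fell to 119 and 88.0 TPM in LPS cells, against 248 and 278 TPM in PBS cells (-1.35 ± 0.14). Eno1 did not pass.

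Of the other genes with the lowest differences, Kbtbd11 was at 6.29 and 7.03 TPM in LPS cells and 109 and 106 TPM in PBS cells (-3.83 ± 0.15). Htr1b, a serotonin receptor, fell by 3.46, and Fgd2, an activator of Cdc42, by 2.85. Mat2a, which makes the methyl donor S-adenosylmethionine, fell to 26.7 and 17.3 TPM in LPS cells, against 190.4 and 165 TPM in PBS cells (-2.99 ± 0.18). Lfng, a glycosyltransferase that modifies Notch, fell by 3.25. Its promoter (chr5:140607091-140607340, plus strand) is shown as that of the named gene with the lowest change among those with the E-box CACGTG, in capitals. The E-box was present in 9.65% of genes at least 2-fold lower, 12.7% of genes at least 2-fold higher and 10.3% of all genes tested.
Lfng: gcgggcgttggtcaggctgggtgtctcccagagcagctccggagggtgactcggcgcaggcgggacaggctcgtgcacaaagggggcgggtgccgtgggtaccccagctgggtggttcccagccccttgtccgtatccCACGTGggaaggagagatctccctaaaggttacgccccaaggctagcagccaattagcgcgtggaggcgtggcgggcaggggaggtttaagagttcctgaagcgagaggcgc

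Mitochondrially encoded transcripts had the lowest median of the lists with at least 5 tested members, at -1.43, with 12 of 13 falling. They took 3.65% and 3.59% of all TPM in LPS libraries, against 6.45% and 6.76% in PBS libraries. The changes differed between members. mt-Nd1, a complex I subunit, was at 840.4 and 661 TPM in LPS cells and 4394 and 4259 TPM in PBS cells (-2.54 ± 0.098, limma adjusted p = 1.47e-06). mt-Cytb of complex III fell to 1153 and 983 TPM in LPS cells, against 3709 and 3818 TPM in PBS cells (-1.82 ± 0.070). mt-Nd4l, mt-Nd4 and mt-Nd2 fell by 2.04, 1.89 and 1.65. mt-Co1 of complex IV was at 11069 and 11157 TPM in LPS cells and 10275 and 10824 TPM in PBS cells and did not pass (0.076 ± 0.051), and it was higher by 0.33 after scaling, past the threshold.

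Near-identical copies of some of these genes lie on chromosome 1 at chr1:24612775-24616197 (GRCm38, minus strand), so the division of reads between copy and gene is uncertain for mt-Nd3, mt-Co1, mt-Co2, mt-Co3 and mt-Atp6. The copies of mt-Nd3 and mt-Co1 were picked out after their values were seen. Gm28438 matched mt-Nd3 at 99.71% of 345 bases and was listed at 236 and 313 TPM in LPS cells, against 1914 and 1915 TPM in PBS cells. Summed with mt-Nd3 the values were 471 and 418 TPM in LPS cells, against 2420.5 and 2442 TPM in PBS cells. For mt-Co1 the copy Gm29216 (99.793% of 483 bases) was listed at 717 and 1348 TPM in LPS cells, against 25.3 and 69.4 TPM in PBS cells. The sums were 11787 and 12505 TPM in LPS cells, against 10299.9 and 10893 TPM in PBS cells. Either way mt-Nd3 was lower in both LPS libraries and mt-Co1 was not.

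Of 71 nuclear genes of the same complexes 2 rose and 48 fell, none by 2-fold, with a median of -0.27 beside -0.23 for all genes, and after scaling 12 rose and 14 fell. Ndufs7 had the largest fall (-0.80 ± 0.059), at 98.5 and 102 TPM in LPS cells and 179 and 171 TPM in PBS cells, and Atp5b did not pass. Of 25 genes of the tricarboxylic acid cycle 6 rose and 16 fell (8 and 8 after scaling), and the largest falls were those of Idh2 (-0.86 ± 0.057) and Idh1 (-0.63 ± 0.056). Cytosolic ribosomal protein genes lay near the median of all genes, with 1 of 57 rising and 38 falling as listed and 14 rising and 2 falling after scaling. The exception was Rpl12, at 319 and 352 TPM in LPS cells and 103 and 103 TPM in PBS cells (1.70 ± 0.097). Ribosomal protein genes have many processed copies, which makes single values such as this uncertain. Of 31 factors of ribosome biogenesis and translation 4 rose and 17 fell (8 and 15 after scaling), with a median of -0.23 beside -0.23 for all genes. The largest falls among them were those of Dkc1 (-1.26 ± 0.11) and Nop56 (-1.19 ± 0.063), and Eif4ebp1, a repressor of translation, rose by 1.17 ± 0.055.

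**Figure D4:**
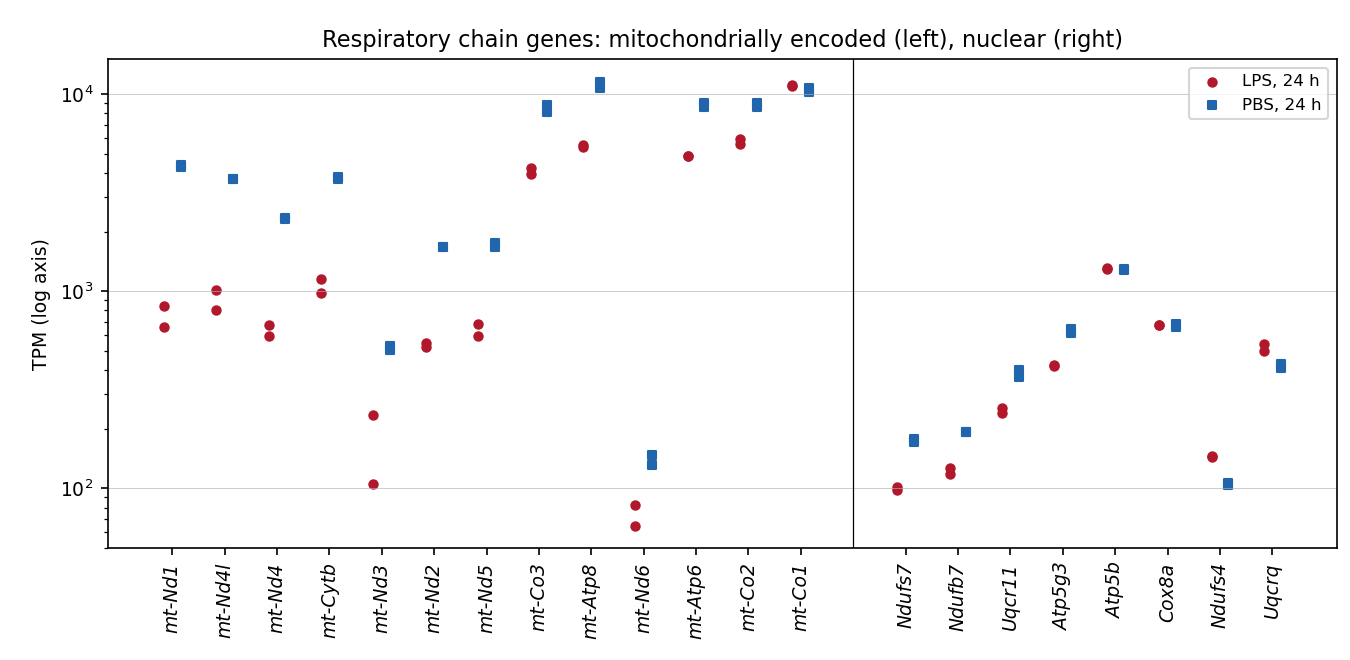
TPM on a log axis for the 13 mitochondrially encoded respiratory chain genes, ordered by their change, and for 8 nuclear ones at 24 h, with the 2 LPS libraries (red circles) left of the 2 PBS libraries (blue squares). The gap between the groups is widest for mt-Nd1 and absent for mt-Co1, and it is small for the nuclear genes.

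Of 23 cholesterol synthesis genes 16 fell and 1 rose (11 and 1 after scaling). Hmgcs1, an early enzyme of the pathway, fell to 17.8 and 19.3 TPM in LPS cells, against 52.6 and 51.7 TPM in PBS cells (-1.44 ± 0.087), and the squalene epoxidase Sqle fell by 1.30, while the regulators Srebf2 and Insig1 did not pass. Of 30 fatty acid metabolism genes 7 rose and 19 fell (8 and 15 after scaling). The fatty acid synthase Fasn fell to 45.6 and 33.7 TPM in LPS cells, against 159 and 146 TPM in PBS cells (-1.93 ± 0.13), and the elongase Elovl6 and desaturase Scd2 fell by 1.88 and 1.70. The lipid droplet proteins Plin2 and Hilpda rose by 1.87 ± 0.089 and 2.89 ± 0.087, and the fatty acid carrier Fabp5 rose to 419 and 480.1 TPM in LPS cells, against 116 and 111 TPM in PBS cells (1.97 ± 0.070). Among LXR targets and efflux genes 4 of 16 rose and 10 fell. Apoe and Mylip fell by 2.16 and 2.13, and the cholesterol exporter Abca1 rose by 1.79 ± 0.21.

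Vim, the intermediate filament protein named in the title of the series, rose and stood at 738 and 739 TPM in LPS cells and 419.7 and 442 TPM in PBS cells (0.78 ± 0.058). Other genes of its list fell, 7 of 11 tested. Lmnb1 and Lmnb2 of the nuclear lamina fell by 1.24 and 1.49, and the linker Plec, which ties vimentin to other filaments, fell to 35.4 and 27.0 TPM in LPS cells, against 68.2 and 65.6 TPM in PBS cells (-1.09 ± 0.12). Of 17 TRiC chaperonin and tubulin genes 3 rose and 10 fell, or 6 and 6 after scaling. Tuba1c was at 95.7 and 83.7 TPM in LPS cells and 330.1 and 325 TPM in PBS cells (-1.86 ± 0.073), Tubb4b fell by 1.70, and the tubulin-binding Stmn1 by 1.79, while Tuba1a rose by 1.39 ± 0.10. Actin genes showed no common direction, with 12 of 30 rising and 11 falling (15 and 5 after scaling). Actg1 rose to 2316 and 2418 TPM in LPS cells, against 1275 and 1283 TPM in PBS cells (0.89 ± 0.038), and the membrane linker Msn rose by 1.00 ± 0.044.

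Tgm2, the transglutaminase also named there, rose to 72.2 and 67.4 TPM in LPS cells, against 15.7 and 21.0 TPM in PBS cells (1.88 ± 0.13). Its exons overlap those of Rprd1b on the other strand in GENCODE M21, and how strand was used in the quantification is not given in the sources used here. The same holds for other genes among the 20 highest and 20 lowest changes whose exons overlap a gene on the other strand, of which Ccne2, Cd276, Cx3cr1, Htr1b, Il1a, Kbtbd11, Mat2a, Txnip and Urah are named here. Of the 12 tested genes listed with it, 5 rose and 5 fell (6 and 4 after scaling). The TGF-β receptor genes Tgfbr1 and Tgfbr2 and the mediator Smad3 fell by 2.10, 0.77 and 1.06, and the inhibitor Smad7 rose by 1.55 ± 0.17. Of 28 adhesion genes 20 rose and 6 fell. The matrix glycoprotein Thbs1 rose to 35.9 and 30.7 TPM in LPS cells, against 0.0691 and 0.0274 TPM in PBS cells (5.03 ± 0.13). Procr, the receptor of activated protein C, and Plaur, the urokinase receptor, rose by 4.49 ± 0.17 and 2.79 ± 0.084. The integrin chain Itga4 fell to 110.5 and 89.1 TPM in LPS cells, against 545 and 530.4 TPM in PBS cells (-2.43 ± 0.098), and Itgb7, its partner on leukocytes, rose by 2.72 ± 0.17. The shedding protease Adam8 rose to 894 and 841 TPM in LPS cells, against 239 and 257 TPM in PBS cells (1.80 ± 0.056), whereas Adam10 and Adam17 fell by 0.75 and 0.63.

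At 5 TPM or more in both LPS libraries and at 0 in both PBS libraries were 13 genes. They were Csf3, Il1a, Urah, Pdpn, Il6, Fabp4, Lix1, AA467197, the pseudogene Pgk1-rs7 and predicted genes for the rest. AA467197 was at 7.80 and 9.51 TPM in LPS cells. Urah, which encodes a urate pathway hydrolase, was at 82.2 and 86.3 TPM in LPS cells, and the membrane glycoprotein Pdpn at 42.3 and 38.4 TPM. In the other direction 6 were listed at 0 in both LPS libraries, and each of these is a predicted gene or pseudogene. A value of 0 in a table of estimates need not mean that no transcript was present.

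The 12 h wild-type cells were given the same dose of LPS, in a separate experiment with another RNA extraction date, so time and experiment cannot be told apart and no test was run across the tables. At 12 h 70.9% of 11115 genes passed, 17.8% higher and 53.1% lower, or 32.7% higher and 32.3% lower after scaling. Differences of at least 2-fold were 6.33% higher and 18.1% lower, and the LPS and PBS libraries did not overlap for 86.9% of genes. Of 10797 genes tested in both tables, 434 were at least 2-fold higher in both, which was 53.3% of those at 24 h and 66.8% of those at 12 h. For falls of at least 2-fold the 723 shared genes were 51.2% of those at 24 h and 36.9% of those at 12 h. Across genes, which are not independent, the differences at the 2 times correlated at r = 0.67.

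Some named genes had a large difference at 24 h and a small one at 12 h. The tables were made separately, and the PBS groups of the 2 tables were unlike for several of these genes, so the levels are given beside the differences. Irf7 differed by 4.13 at 24 h and by -0.29 at 12 h, where it stood at 536 and 579 TPM in LPS cells and 693 and 674 TPM in PBS cells. Its LPS levels were thus near those at 24 h (660.3 and 649 TPM), while its PBS levels lay far above those at 24 h (37.2 and 35.8 TPM). Dusp4 differed by 4.98 at 24 h and 0.44 at 12 h, where it stood at 52.2 and 57.2 TPM in LPS cells and 41.6 and 38.5 TPM in PBS cells. Atf3 differed by 5.35 at 24 h and 0.86 at 12 h, where it stood at 79.4 and 74.1 TPM in LPS cells and 40.9 and 42.9 TPM in PBS cells. For both genes LPS levels were higher and PBS levels lower at 24 h than at 12 h. Txnip fell by 4.13 at 24 h, with -0.41 at 12 h. It stood at 22.7 and 16.4 TPM in LPS cells and 352 and 358 TPM in PBS cells at 24 h. At 12 h it stood at 184 and 189 TPM in LPS cells and 253 and 243 TPM in PBS cells. Other differences were larger at 12 h, with PBS levels that were low at both times. S100a8 rose by 2.26 at 24 h, against 8.71 at 12 h, and Saa3 by 2.72 at 24 h, against 6.48 at 12 h.

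Lists at 12 h are read against a median of -0.35 for the genes tested at both times and the percentages above. Targets of p53 had 22 higher and 4 lower at 24 h and 8 higher and 13 lower at 12 h, with a 12 h median of -0.26. The class I list had 16 higher and 1 lower at 24 h and 1 higher and 12 lower at 12 h, with a 12 h median of -0.25. The share of lower genes at 12 h was thus near that of all genes in both lists. The share of higher genes was not, with 8 of 26 p53 targets and 1 of 21 class I genes, against 17.8% of all genes. The endoplasmic reticulum chaperones had 5 higher and 19 lower at 24 h and 22 higher and 4 lower at 12 h, with a 12 h median of 0.54. The mitochondrially encoded genes had a median of -1.43 at 24 h and -0.50 at 12 h, where none of the 13 passed limma's threshold. At 12 h mt-Nd1 stood at 2723 and 1139.6 TPM in the 2 LPS libraries and 2523 and 3164 TPM in the 2 PBS libraries, so the groups overlapped. Vim differed by 0.78 at 24 h and by -0.43 at 12 h, where it stood at 1375 and 1461 TPM in LPS cells and 1930.1 and 1877 TPM in PBS cells. After scaling its 12 h difference was -0.050 and did not pass. Tgm2 differed by 1.88 at 24 h and by -0.014 at 12 h, where it stood at 3.11 and 3.39 TPM in LPS cells and 3.33 and 3.25 TPM in PBS cells. Both groups had more Vim and less Tgm2 in the 12 h table than in the 24 h table.

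**Figure D5:**
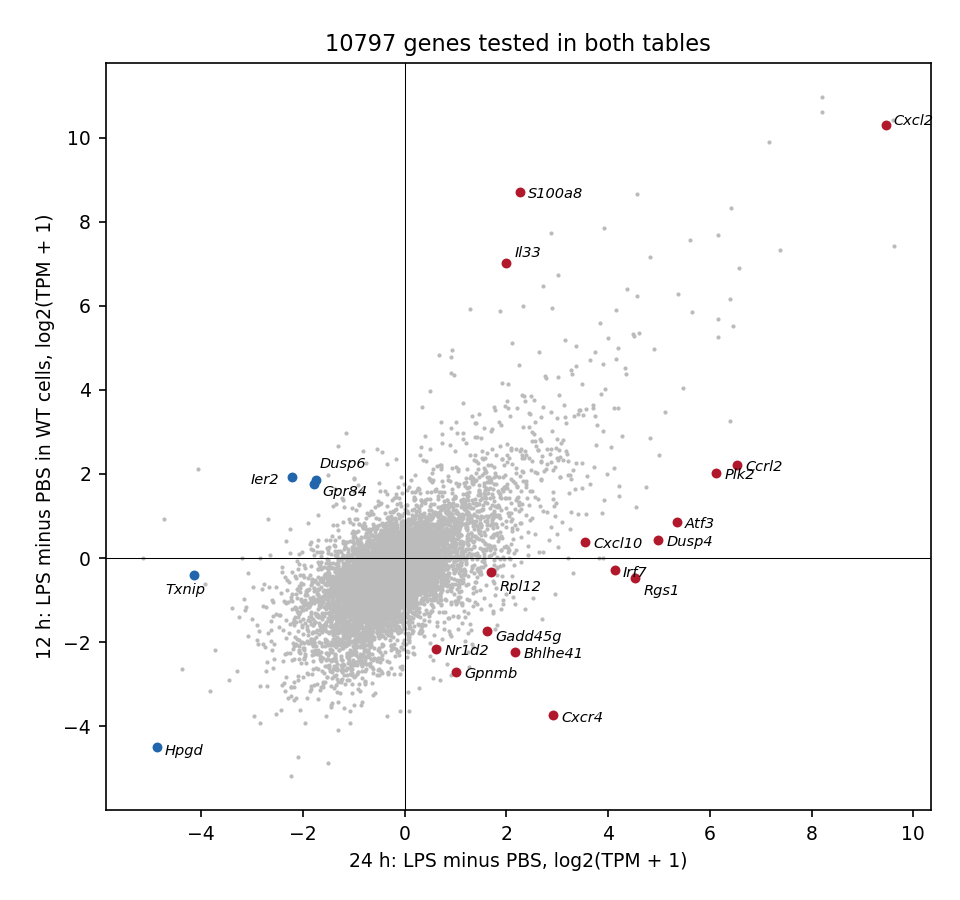
LPS minus PBS differences in log2(TPM + 1) at 24 h (x axis) and in wild-type cells at 12 h (y axis) for the 10797 genes tested in both tables, with named genes colored by their direction at 24 h (red higher, blue lower). The 434 genes at least 2-fold higher in both tables lie in the upper right, and Cxcr4 at 2.92 and -3.74 is the labelled gene lowest on the right side.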

How the data were processed

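RNA of RAW264.7 cells was sequenced from TruSeq Stranded mRNA libraries, per the labels' protocols. The authors deposited 1 table of TPM (abundance corrected for transcript length, scaled to a fixed total per library) per experiment, listed by gene symbol. Salmon (version not given) and the build mm10/GRCm38 are named in the submitters' processing notes. TPM keeps no read depth, so no counting error could be given, and the annotation and the summing to symbols are not given in the sources used here. The 24 h LPS columns are numbered otherwise than the labels' replicates and were assigned by group only. All 14 columns of the 2 cell tables were mapped, and the liver table was not used here.

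Genes that averaged 1 TPM or more (11030 of 35550 symbols at 24 h) entered a limma model (limma 3.58.1, R 4.3.3) of log2(TPM + 1) with a mean-variance trend. All 6 libraries of the 24 h table, and all 8 of the 12 h table, entered 1 model each. Those of the 24 h table include 2 with LPS plus CTM. Those of the 12 h table include 2 Vim-KO libraries with PBS and 2 with LPS. Benjamini-Hochberg adjusted p-values, taken across every gene tested, were called below 0.05, and the contrast was LPS minus PBS. On simulated data with 200 changed genes of 11030, the 24 h model recovered 93% of 2-fold and 100% of 4-fold changes. It made 202 calls, of which 9 were false. The changed genes were drawn only from genes above a minimum PBS level, so recovery of genes near 0 with PBS was not tested. In the deposited data 66.0% of genes passed, and the model was not tested with so large a share of genes changed. Alternatives were a filter at 5 TPM or none, a pseudocount of 0.1, scaling by median of ratios, limma without the trend, a fit on LPS and PBS libraries alone and leaving out each library.

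Gene lists, members and tests were chosen with earlier results of these data known. Genes were named by a rule: Vim, Tgm2, the 20 highest and 20 lowest changes that passed without overlap of the groups and with at least 5 TPM in the higher group (predicted genes, pseudogenes and clone names skipped), and of each list up to 6 members with the largest changes, up to 3 against the majority and up to 3 abundant ones that did not pass. Other genes are said to be picked after their values were seen, and some genes are not reported here. Promoters are 250 bases before the start from RefSeq (GRCm38.p6), other positions are from GENCODE M21, and mitochondrial copies were aligned with blastn 2.17.0. Tables were handled with Python 3.11.15, numpy 2.4.6, pandas 2.3.3 and matplotlib 3.10.9.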

Additional observations from a re-analysis of the deposited data

Results flagged for a closer look

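Of the genes described, 29 passed limma's threshold in opposite directions at 24 h and at 12 h, with both LPS libraries beyond both PBS libraries at each time. The genes described and tested at 24 h numbered 336. Among all 10797 genes tested at both times 754 met the same rule, and 48 were at least 2-fold at both. The 29 are therefore listed as cases, and their number is not a result about the genes described. The difference between the times was not tested, and time and experiment cannot be told apart. Values are LPS minus PBS on the log2(TPM + 1) scale.

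Higher with LPS at 24 h and lower at 12 h were 12 genes. Rgs1 differed by 4.54 at 24 h and by -0.48 at 12 h, Irf7 by 4.13 at 24 h and -0.29 at 12 h, Eda2r by 2.95 at 24 h and -0.85 at 12 h, and Cxcr4 by 2.92 at 24 h and -3.74 at 12 h. Bhlhe41 had a difference of 2.18 at 24 h and of -2.23 at 12 h, H2-T23 of 1.82 at 24 h and -0.22 at 12 h, Rpl12 of 1.70 at 24 h and -0.33 at 12 h, and Gpnmb of 1.00 at 24 h and -2.70 at 12 h. Vim was at 0.78 at 24 h and at -0.43 at 12 h, Cd74 at 0.76 at 24 h and -0.28 at 12 h, Tlr2 at 0.61 at 24 h and -0.63 at 12 h, and Lyz2 at 0.43 at 24 h and -0.77 at 12 h. After median-of-ratios scaling the 12 h difference turned positive for Cd74 (0.093), H2-T23 (0.15), Irf7 (0.081) and Rpl12 (0.037), and no longer passed for these genes.

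Lower with LPS at 24 h and higher at 12 h were 17 genes. Ier2 differed by -2.21 at 24 h and by 1.92 at 12 h, Tuba1c by -1.86 at 24 h and 0.33 at 12 h, Gpr84 by -1.79 at 24 h and 1.77 at 12 h, and Dusp6 by -1.75 at 24 h and 1.85 at 12 h. Dnajc3 had a difference of -1.46 at 24 h and of 0.43 at 12 h, Slc16a3 of -1.35 at 24 h and 1.29 at 12 h, Dnaja1 of -1.18 at 24 h and 0.25 at 12 h, and Tirap of -1.07 at 24 h and 0.86 at 12 h. Manf was at -1.04 at 24 h and at 1.19 at 12 h, Sdf2l1 at -1.02 at 24 h and 0.41 at 12 h, Ifi47 at -1.01 at 24 h and 0.64 at 12 h, and Tnip3 at -0.99 at 24 h and 0.50 at 12 h. Tnfrsf1a differed by -0.89 at 24 h and by 0.40 at 12 h, Hspa8 by -0.85 at 24 h and 0.48 at 12 h, Il18 by -0.79 at 24 h and 0.50 at 12 h, and C3 by -0.77 at 24 h and 0.96 at 12 h. Ifitm2 had a difference of -0.34 at 24 h and of 0.30 at 12 h. After scaling the 24 h call was also lost for Ifitm2 (-0.089) and the 12 h call for Rgs1 (-0.11) and Vim (-0.050), without a change of direction.

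The levels behind these differences were not alike in the 2 tables, which were made separately. Mean LPS levels lay at least 2-fold apart between the tables for 20 of the 29 genes, and mean PBS levels for 9, with 5 genes in both counts. These levels were not counted over all genes, so the counts describe the 29 alone. For C3, H2-T23, Irf7 and Vim this held for the PBS levels and not for the LPS levels. Irf7 stood at 660.3 and 649 TPM in LPS cells and 37.2 and 35.8 TPM in PBS cells at 24 h, and at 536 and 579 TPM in LPS cells and 693 and 674 TPM in PBS cells at 12 h. Cxcr4 stood at 31.6 and 36.1 TPM in LPS cells and 2.80 and 4.58 TPM in PBS cells at 24 h, and at 0 and 0.0865 TPM in LPS cells and 14.9 and 11.2 TPM in PBS cells at 12 h. Dusp6 stood at 14.1 and 7.67 TPM in LPS cells and 36.1 and 38.7 TPM in PBS cells at 24 h, and at 81.2 and 96.2 TPM in LPS cells and 24.98 and 22.6 TPM in PBS cells at 12 h.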

How the results depend on the processing

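Of 303 named genes that passed at 24 h, 298 passed in the same direction under each of the 10 other settings that tested them. Under median-of-ratios scaling 886 genes were at least 2-fold lower at 24 h, against 1443 as listed, and 3640 genes rose and 3591 fell at 12 h, against 1983 and 5898 as listed. Scaling turned Psat1 to 0.044, Anxa11 to 0.0057 and Txn1 to 0.20, and the excess of risen over fallen members turned to 2 for Toll-like receptors, 13 for the constitutive proteasome and 12 for cytosolic ribosomal proteins. For 31 other lists scaling moved that excess by more than 1.5 times, or away from 0, without turning it. Without a filter it turned to -1 for Toll adaptors and -2 for complement, with a filter at 5 TPM to -1 for MAP kinase phosphatases, and for the actin cytoskeleton to -1 without LPS2, against 3 without LPS3.

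Leaving out 1 library at a time gave 6065 to 6767 calls at 24 h, with 1971 to 2196 higher and 4094 to 4776 lower, of which 817 to 883 and 1364 to 1662 were at least 2-fold. At 12 h it gave 6761 to 7129 calls, with 1648 to 1806 higher and 5034 to 5481 lower. Of the lists, 39 to 44 had more members higher and 22 to 27 more lower, against 40 and 23 with all libraries. Of genes that did not pass, Casp1 (0.28), Eif2ak2 (-0.56) and Map3k8 (-0.46) passed without LPS2, Fos (0.56), Ifnar2 (-0.24) and Mx1 (1.22) without LPS3, and Slc40a1 (1.59) without PBS2. The cause of each change was not tested.

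No paired analysis was possible because the 24 h LPS columns carry other numbers than the labels' replicates. At 12 h the replicate numbers as a block gave 7677 calls, against 7881 without it. Deviations of same-numbered LPS and PBS libraries correlated at -0.14 across genes, and with the LPS numbers crossed, a choice made after seeing the data, the block gave 8039 calls. Further fits at 12 h without the trend, on wild-type libraries alone and with a filter at 5 TPM were also chosen after seeing the data.

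With 2 libraries per group and no read depth in TPM, small changes and low levels are the least certain. Reads of near-identical and overlapping genes could not be told apart.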

Other observations

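Of 12 annexin and galectin genes, which encode proteins that bind membrane phospholipids and β-galactosides, 10 rose and 1 fell, with a median of 0.72. Lgals9 (galectin-9) was at 149.7 and 147 TPM in LPS cells and 32.4 and 34.3 TPM in PBS cells (2.12 ± 0.061 by limma), Anxa3 rose by 1.92 ± 0.12 and Lgals8, which marks damaged vacuoles for autophagy, by 1.25 ± 0.10. Anxa11 fell by 0.24, a difference of 0.0057 after scaling. Matrix metalloproteinases were low in all 4 libraries, but Mmp12 (macrophage elastase), Mmp13 and their inhibitor Timp1 rose by 2.61 ± 0.29, 2.25 ± 0.23 and 2.34 ± 0.26. Mmp12 was at 4.91 and 8.87 TPM in LPS cells and 0.121 and 0.388 TPM in PBS cells.

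The neighboring membrane proteins Tmem176a and Tmem176b fell together, to 16.9 and 21.4 TPM and 53.4 and 55.9 TPM in LPS cells, against 101 and 142 TPM and 260.0 and 273 TPM in PBS cells (-2.59 ± 0.17 and -2.27 ± 0.068), while Ms4a6d rose by 1.39 ± 0.059. Of 12 tested genes typical of osteoclasts 4 rose and 4 fell, and Gpnmb, a glycoprotein of lysosomes, rose to 273 and 283 TPM in LPS cells, against 134 and 143 TPM in PBS cells (1.00 ± 0.095). Of 17 genes of cyclins, their kinases, the RB family and the MYC network 4 rose and 11 fell. Mxd1, which competes with Myc for its partner Max, rose beside Myc (2.57 ± 0.16), while its relative Mxd4 fell by 1.61.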
